A study of Homo sapiens with 3 samples.

Results

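UHRF1, FEN1, GINS2, CCNE2, TYMS and DNA2 are 6 human genes whose products act in DNA replication, in nucleotide supply for it, or at entry into S phase. They were chosen by name, with their lower values after Mt-CFX treatment already known, so those values are a description and carry no test. All 6 had exactly 1 named probe set each, and they stood among 14884 genes named on the array and 8868 protein-coding genes above a floor set at the median of all probe sets, 3.89 log2. The array was hybridised with RNA from cultures of MDA-MB-231, a long-established line of human breast cancer that is classed as triple-negative. The cells received 10 µM Mt-CFX for 72 h, 10 µM CFX for 72 h, or 1% DMSO for 72 h as the vehicle control, and each of these groups was 1 array (n = 1). Ciprofloxacin, the fluoroquinolone in the title of the series, is an antibiotic, while Mt-CFX is known here by its code name only. A DMSO content is given for the control alone, so solvent and compound cannot be told apart where it differed. With single arrays there is no replicate error, no p-value can be given, and every difference below is a difference between these arrays.

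As background, DNA replication starts when G1/S cyclins and their kinase release E2F transcription factors, which switch on the genes for the replication machinery. A helicase of the MCM ring, CDC45 and the GINS complex then opens the duplex, nucleotide enzymes supply the building blocks, and the lagging strand is made in short Okazaki fragments that nucleases trim before ligation. Behind the fork UHRF1 reads hemimethylated CpG sites and brings in DNMT1, so that the methylation pattern is copied. High levels of such transcripts are a usual mark of dividing tumour cells. In RNA from whole cultures, fewer cells in S phase and less RNA per cell cannot be told apart.

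Values are log2 expression values, so a difference of 1 is a 2-fold difference. The medians of all probe sets were 3.88 on the Mt-CFX array, 3.90 on the CFX array and 3.91 on the control array. Of the genes compared, 45.3% had tied values on all 3 arrays. The floor was cleared by 8868 of the 11915 named protein-coding genes, so passing it marks no cell type. Of 6 markers of mesenchymal-like cells fixed for this line, 4 were measured and all 4 lay above the floor. VIM was at 9.17 on each array, while the other 3 were lower with Mt-CFX. FN1 was at 8.05 with Mt-CFX, 8.52 with CFX and 8.78 in the control, CD44 at 7.31 with Mt-CFX and 7.65 on both other arrays, and AXL at 10.86 with Mt-CFX, 10.93 with CFX and 10.97 in the control. KRT5 and KRT14 of basal epithelium, CD14 of leukocytes and PECAM1 of endothelium lay below it, as did PGR, the progesterone receptor. ESR1, the oestrogen receptor, was at 3.81 with Mt-CFX, 3.92 with CFX and 3.81 in the control, next to the floor. The 6 measured markers of luminal epithelium were above the floor as well, with KRT18 at 8.36 on each array.

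Promoter sequences are shown because E2F factors are the textbook regulators of S-phase genes. The direction that the 6 genes shared with Mt-CFX was known when they were chosen, and regulation by E2F was not tested. RefSeq windows of the 250 bases before an annotated start (build GRCh38.p14) were found for 4 of the 6 genes, with 3 starts for UHRF1 and 1 each for FEN1, GINS2 and TYMS. Letters of the E2F sites TTTCGCGC, TTTGGCGC and TTTCCCGC, read on both strands, are in capitals, and sequences run 5′ to 3′ on the gene's strand. The windows lie at chr19:4909251-4909500 (+ strand) and chr19:4909894-4910143 (+ strand) for UHRF1, at chr16:85688955-85689204 (- strand) for GINS2, at chr18:657403-657652 (+ strand) for TYMS and at chr11:61792661-61792910 (+ strand) for FEN1.
UHRF1, upstream start: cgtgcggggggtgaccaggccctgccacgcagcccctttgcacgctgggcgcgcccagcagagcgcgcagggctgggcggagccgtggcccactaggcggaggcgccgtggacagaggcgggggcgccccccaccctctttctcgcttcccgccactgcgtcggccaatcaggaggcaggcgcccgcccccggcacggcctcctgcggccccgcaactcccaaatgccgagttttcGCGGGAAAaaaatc
UHRF1, middle start: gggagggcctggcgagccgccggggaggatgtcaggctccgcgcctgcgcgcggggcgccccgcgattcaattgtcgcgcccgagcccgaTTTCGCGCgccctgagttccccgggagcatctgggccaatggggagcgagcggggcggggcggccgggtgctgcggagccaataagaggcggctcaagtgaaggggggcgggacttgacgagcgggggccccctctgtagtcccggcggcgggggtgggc
GINS2: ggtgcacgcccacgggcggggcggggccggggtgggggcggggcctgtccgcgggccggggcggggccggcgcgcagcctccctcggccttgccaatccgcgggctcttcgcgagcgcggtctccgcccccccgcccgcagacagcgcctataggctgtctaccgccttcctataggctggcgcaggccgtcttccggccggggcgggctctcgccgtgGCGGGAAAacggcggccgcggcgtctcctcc
TYMS: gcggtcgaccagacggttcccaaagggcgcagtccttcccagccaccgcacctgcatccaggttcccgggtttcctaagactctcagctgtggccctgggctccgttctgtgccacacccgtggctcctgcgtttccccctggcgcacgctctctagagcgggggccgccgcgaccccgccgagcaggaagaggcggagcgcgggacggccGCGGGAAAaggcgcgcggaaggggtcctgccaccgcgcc
FEN1, no match: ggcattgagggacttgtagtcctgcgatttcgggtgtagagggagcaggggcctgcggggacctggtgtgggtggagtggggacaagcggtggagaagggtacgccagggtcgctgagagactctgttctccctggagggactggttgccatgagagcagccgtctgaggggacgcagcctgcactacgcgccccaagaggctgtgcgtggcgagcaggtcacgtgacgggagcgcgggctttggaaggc

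The site TTTCCCGC was found on the opposite strand in UHRF1, GINS2 and TYMS, with its first printed base 14, 31 and 39 bases before the start in that order. The middle UHRF1 window held TTTCGCGC on the gene's strand, from 160 bases before its start, and the third UHRF1 window held no E2F site. FEN1 had none of these letters in its window, which says nothing about E2F at FEN1. At least 1 of the 3 sites was present in 3 of the 4 genes, against 4.65% of the 7341 compared genes that had a window and 2.32% of all 35116 windows. Of the other replication genes described below, 22 of 70 with a window (31.4%) held a site. Among them were E2F1, E2F2, MCM3, MCM7, PCNA, CDC25A and CDCA7, all lower with Mt-CFX over control. CDCA5, E2F3, MCMBP and STAG1 also held a site and were equal in that comparison, and TIPIN held one and was higher, at 0.20. The CCAAT box, CCAAT, was in windows of 2 of the 4 genes (UHRF1 and GINS2) and of 41.4% of compared genes, and the GC box, GGGCGG, in the same 2 genes and in 74.0%. The cell cycle element TTTGAA was in 0 of the 4 and in 11.8%. A match is a match of letters and not a measured binding site.

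With Mt-CFX all 6 genes were lower than with CFX and lower than in the vehicle control. The Mt-CFX array was the lowest of the 3 for 6 of 6 genes, and for 4 of 6 (UHRF1, FEN1, GINS2 and CCNE2) it lay at least 1.5-fold below both other arrays. Among all 8868 genes the Mt-CFX array was lowest for 18.7%, and at least 1.5-fold below both others for 0.789%. Of all genes 23.2% were lower, 52.9% equal and 23.9% higher with Mt-CFX over control, and 25.2% were lower, 54.7% equal and 20.1% higher with Mt-CFX over CFX. The choice of genes used these values, so nothing is read from the contrast. With CFX over control the genes went in different directions, with 3 lower, 1 equal and 2 higher, while 15.0% of all genes were lower, 59.2% equal and 25.8% higher.

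**Figure D1:**
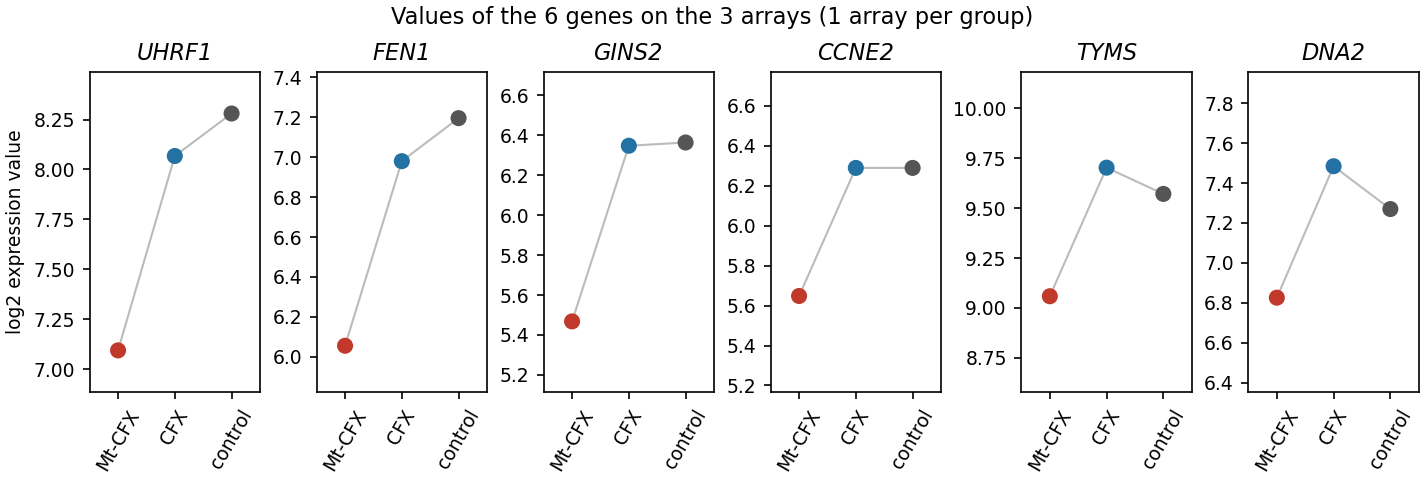
log2 expression values (y axis) of the 6 genes on the Mt-CFX, CFX and control arrays (x axis), each point being 1 array; all panels span the same number of log2 units but start at different levels. The Mt-CFX point is the lowest in every panel, and the CFX point lies below the control for UHRF1, FEN1 and GINS2, level with it for CCNE2, and above it for TYMS and DNA2.

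UHRF1 is the reader of hemimethylated DNA that keeps CpG methylation through replication. Its value was 7.09 on the Mt-CFX array, 8.07 on the CFX array and 8.28 on the control array. Both treated arrays lay below the control, the Mt-CFX array by far more. The log2 difference was −1.19 for Mt-CFX over control, which is 43.9% of the control level, and 9 of the 8868 genes had a lower one. CFX over control was −0.21 and Mt-CFX over CFX was −0.97.

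FEN1, the flap endonuclease that removes the displaced primer end of each Okazaki fragment, had nearly the same pattern. It was at 6.06 with Mt-CFX, 6.98 with CFX and 7.20 in the control. The log2 difference of Mt-CFX over control was −1.14, or 45.4% of the control level, and 15 genes had a lower one. CFX over control was −0.22 and Mt-CFX over CFX −0.92. UHRF1 and FEN1 were the 2 of the 6 genes that passed 2-fold lower with Mt-CFX over control, a size reached in that direction by 0.259% of all genes.

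DNA2, a nuclease and helicase that cuts long flaps which escape FEN1, did not share the CFX values of FEN1. It was at 6.83 with Mt-CFX, 7.48 with CFX and 7.27 in the control, so that the CFX array was the highest. The log2 differences were −0.44 for Mt-CFX over control, 0.21 for CFX over control and −0.66 for Mt-CFX over CFX. With CFX over control 252 genes had a higher difference than DNA2, while 174 had a lower one than FEN1.

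GINS2 encodes a subunit of the GINS complex, which joins the MCM ring and CDC45 in the active helicase. Its value was 5.47 with Mt-CFX, 6.35 with CFX and 6.36 in the control. The CFX and control arrays were almost level, at a log2 difference of −0.02. Mt-CFX lay below both by nearly the same amount, at −0.90 over control, 53.7% of its level, and −0.88 over CFX.

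CCNE2, cyclin E2, activates CDK2 at entry into S phase. It was at 5.65 with Mt-CFX, and at exactly 6.29 both with CFX and in the control. The Mt-CFX difference was therefore −0.64 over either, which is 64.1% of their level.

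TYMS, thymidylate synthase, makes the thymidine monophosphate needed for DNA synthesis and is the target of fluoropyrimidine drugs. It was at 9.06 with Mt-CFX, 9.70 with CFX and 9.57 in the control. As for DNA2, CFX was the highest array and Mt-CFX the lowest. The log2 differences were −0.51 for Mt-CFX over control, 0.13 for CFX over control and −0.64 for Mt-CFX over CFX, so the Mt-CFX level was 70.1% of the control level and 64.0% of the CFX level.

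**Figure D2:**
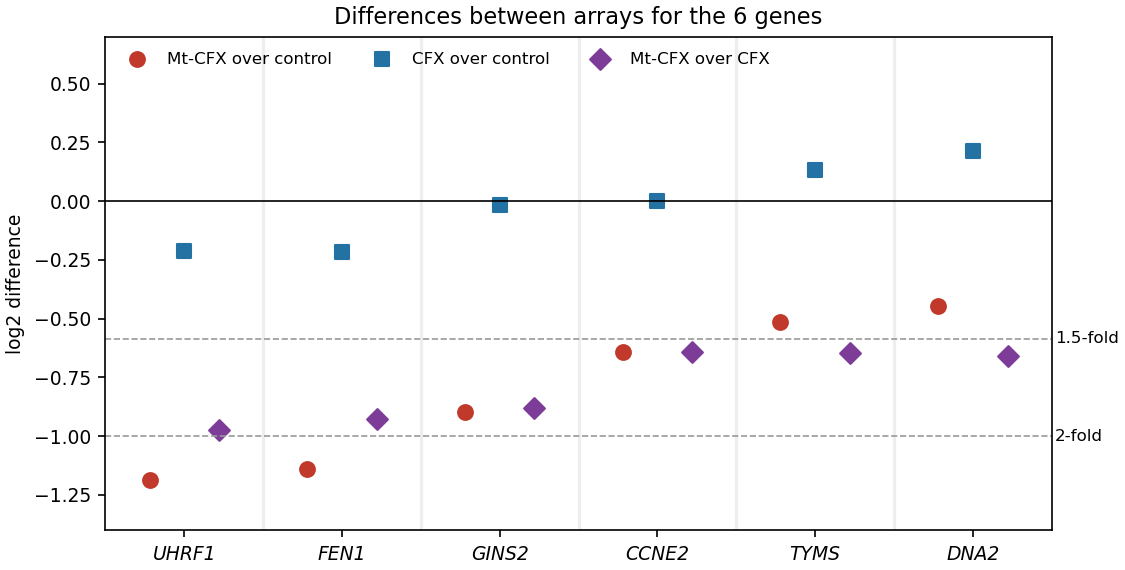
log2 differences (y axis) of the 6 genes (x axis) for Mt-CFX over control (circles), CFX over control (squares) and Mt-CFX over CFX (diamonds), 1 array per group; dashed lines mark 1.5-fold and 2-fold lower. The circles run from −1.19 for UHRF1 to −0.44 for DNA2, the squares from −0.22 to 0.21, and all diamonds lie between −0.97 and −0.64.

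At the matched 10 µM and 72 h, Mt-CFX and CFX differed by −0.64 to −0.97 log2 in the 6 genes, with a median of −0.77. All 6 were at least 1.5-fold lower with Mt-CFX than with CFX, a size reached in that direction by 1.03% of all genes, and 0 were 2-fold lower, which 0.124% of all genes were. Over the control the same genes spanned −0.44 to −1.19 with Mt-CFX, also with a median of −0.77, and 4 of 6 were at least 1.5-fold lower, against 1.25% of all genes. The spread across genes was 0.33 log2 for Mt-CFX over CFX and 0.74 for Mt-CFX over control. UHRF1, FEN1 and GINS2 stood lowest and in that order in both, while DNA2 and TYMS drew level with CCNE2 when CFX was on the other side. The comparisons share arrays, so they are not separate observations. No interval can be given for any difference between the compounds.

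With CFX over control 0 of the 6 genes reached 1.5-fold in either direction, against 0.101% of all genes lower and 0.0451% higher, and 0.0% of all genes were 2-fold lower. Their median was −0.01 log2, beside 0.00 for all genes. The range over all 8868 genes was also narrower with CFX, where 5% of genes lay below −0.12 and 5% above 0.17, than with Mt-CFX over control, where these bounds were −0.29 and 0.30. UHRF1 and FEN1 lay below the lower CFX bound and DNA2 above the upper.

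**Figure D3:**
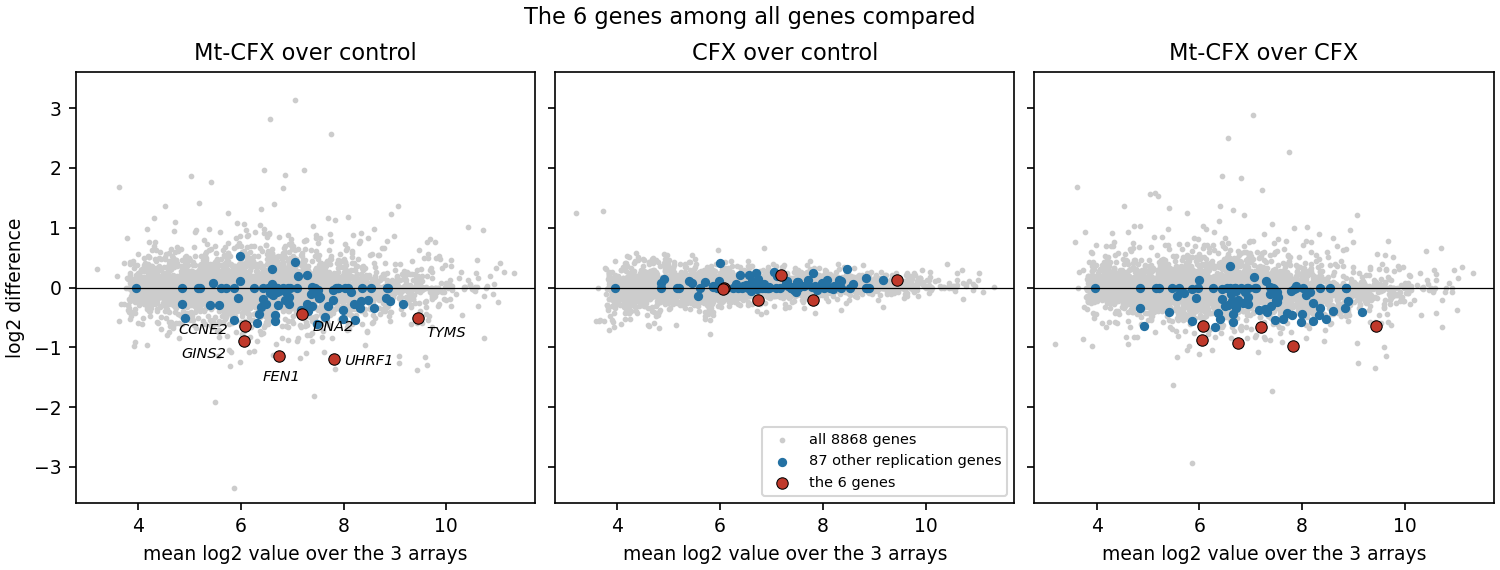
log2 difference (y axis) against the mean log2 value over the 3 arrays (x axis) for all 8868 genes (grey), 87 other replication genes (blue) and the 6 genes (red), with 1 panel for each comparison. The 6 genes lie below 0 with Mt-CFX over control and over CFX, at −0.44 or lower and −0.64 or lower, with other genes lower still (to −3.35 over control), and on both sides of 0 with CFX over control.

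The wider replication machinery was described from lists that held 146 genes besides the 6. Of these 87 were measured above the floor, 1 (CDKN2A) lay below it, and 58 were not analysed here, among them all replicative polymerases, the RPA subunits and the origin recognition complex. With Mt-CFX over control 52 of the 87 were lower, 26 equal and 9 higher, a lower share of 59.8% against 23.2% of all genes. Their median was −0.09 log2 beside 0.00 for all genes. At least 1.5-fold lower were 2 of 87, E2F8 and CDC25A, a size reached in that direction by 1.25% of all genes. With CFX over control 11 were lower, 28 equal and 48 higher, a higher share of 55.2% against 25.8% of all genes, with a median of 0.01. Mt-CFX over CFX had 59 lower, 22 equal and 6 higher, with a median of −0.14. In that comparison 25.2% of all genes were lower, 54.7% equal and 20.1% higher. For 40 of the 87 (46.0%) the CFX array was the highest of the 3, as for TYMS and DNA2, against 12.6% of all genes. UHRF1, FEN1, GINS2 and CCNE2 had the lowest Mt-CFX over control differences of all 93 measured replication genes. TYMS was number 11 and DNA2 number 15. The 6 genes were chosen with these values known, and the lists with earlier results of these data known. Nothing is therefore read from this order or from the shares above. The same holds for the shares in the roles below.

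Around GINS2, and leaving it out, genes of the active helicase and origin firing were lower with Mt-CFX in 9 of 11 cases and equal in 2. Their median was −0.27 over control, and 23.2% of all genes were lower and 52.9% equal in that comparison. Other GINS subunits differed in size. GINS4 was at −0.54 (0.11 at its other probe set, which lay below the floor), GINS1 at −0.28 and GINS3 at −0.05. The firing factors TICRR and MCM10 were at −0.52 and −0.50, RECQL4 at −0.30 and DONSON at −0.27, whereas CDC45 was at −0.07, the kinase CDC7 at −0.04, and its partner DBF4 and TOPBP1 were equal. With CFX over control 9 of these 11 were higher, led by GINS3 at 0.24 and CDC45 at 0.15, beside 25.8% of all genes higher.

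All 6 subunits of the MCM ring, the motor of the helicase, were lower with Mt-CFX over control, beside 23.2% of all genes. Their median was −0.35. MCM4 was at −0.54, MCM2 at −0.38, MCM5 at −0.37, MCM7 and MCM3 at −0.34 each, and MCM6 at −0.05. With CFX 5 of the 6 were higher than in the control, by at most 0.12, beside 25.8% of all genes higher. Of the factors that load the ring at origins, CDC6 was at −0.16 and CDT1 at −0.08, and MCMBP, an MCM-binding protein, was equal; each of these 3 differed less than 5 of the 6 ring genes.

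On the lagging strand, EXO1, an exonuclease, was at −0.31 with Mt-CFX and 0.13 with CFX over control, beside FEN1 and DNA2, while the helicase gene PIF1 was equal on all arrays. PCNA, the sliding clamp that tethers FEN1 to DNA, was at 8.22 with Mt-CFX, 8.75 with CFX and 8.44 in the control. Its difference was −0.22 for Mt-CFX over control, 0.31 for CFX over control and −0.53 between the compounds. DSCC1, part of an alternative clamp loader, was at −0.09 with Mt-CFX and 0.21 with CFX over control. The PCNA partner PCLAF was at −0.08 with Mt-CFX and tied between CFX and control.

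Among genes that copy DNA methylation, DNMT1, the methyltransferase brought in by UHRF1, was at 8.75 with Mt-CFX and 8.97 both with CFX and in the control, a difference of −0.22. CDCA7, a partner of the remodeller HELLS, was at −0.55. USP7, a deubiquitinase that binds UHRF1 and DNMT1, was equal on all 3 arrays, and ZBTB24 was equal with Mt-CFX and in the control.

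Besides CCNE2, the cyclin E and cyclin A group had 4 of 4 genes lower with Mt-CFX over control, beside 23.2% of all genes. Their median was −0.25. CDC25A, the phosphatase that activates CDK2, was at −0.59, CCNE1 at −0.29, CCNA2 at −0.22 and CDK2 at −0.17. CCNE1 was also lower with CFX, at −0.15 over control, where its paralogue CCNE2 was equal. Of the G1 cyclins and kinases that act earlier, CCND1, CCND2, CCND3, CDK4 and CDK6 were all tied between the Mt-CFX and control arrays. So were 52.9% of all genes. CCND2 was next to the floor, at 3.96 on each array, and its other probe set lay below the floor at 3.71.

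Of 10 measured E2F and RB family genes 5 were lower with Mt-CFX over control, 4 equal and 1 higher. The shares of all genes were 23.2% lower, 52.9% equal and 23.9% higher. E2F8 was at −0.61, E2F2 at −0.50, the dimer partner TFDP1 at −0.45 and E2F1 at −0.44. RBL1 was at −0.21 over control with Mt-CFX and at 0.25 with CFX. E2F3, E2F7, RB1 and RBL2 were equal on all arrays, and TFDP2 was at 0.06 with each compound.

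Nucleotide supply, the role of TYMS, was mixed. With Mt-CFX over control 7 of the 11 genes other than TYMS were lower, 2 equal and 2 higher, with a median of −0.08. The shares of all genes were 23.2% lower, 52.9% equal and 23.9% higher. DTYMK, the kinase that acts on the product of TYMS, was at −0.30, the ribonucleotide reductase subunit RRM1 at −0.28 and DUT, which keeps uracil out of DNA, at −0.27. Both genes that were higher have a paralogue in the list with another value. RRM2B, the p53-inducible small subunit of ribonucleotide reductase, was at 0.53 with Mt-CFX and 0.41 with CFX over control, while RRM2 was at 0.00 with Mt-CFX and 0.03 with CFX. SHMT2, the mitochondrial serine hydroxymethyltransferase, was at 0.31 with Mt-CFX and −0.05 with CFX, while the cytosolic SHMT1 was at −0.17 with Mt-CFX and 0.00 with CFX.

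Fork protection and checkpoint genes were lower with Mt-CFX over control in 5 of 13 cases, equal in 4 and higher in 4, with a median of 0.00. The shares of all genes were 23.2% lower, 52.9% equal and 23.9% higher. CLSPN was at −0.39 (its other probe set, below the floor, was equal on all arrays), TIMELESS at −0.20, WDHD1 at −0.18, CHEK1 at −0.15 and WEE1 at −0.12. RAD17 was at 0.21, TIPIN at 0.20, HUS1 at 0.11 and ATRIP at 0.08. With CFX over control 10 of the 13 were higher, by at most 0.20, 0 lower and 3 equal, beside 25.8% of all genes higher. Histone deposition genes had a median of −0.13 with Mt-CFX, led by NASP at −0.28 and ASF1B at −0.18. In the cohesion list ESCO2, the S-phase acetyltransferase of cohesin, was at −0.32 and ESCO1 at 0.43, with SMC1A at −0.31 and SMC3 at −0.27 and a median of 0.00 over 9 genes.

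**Figure D4:**
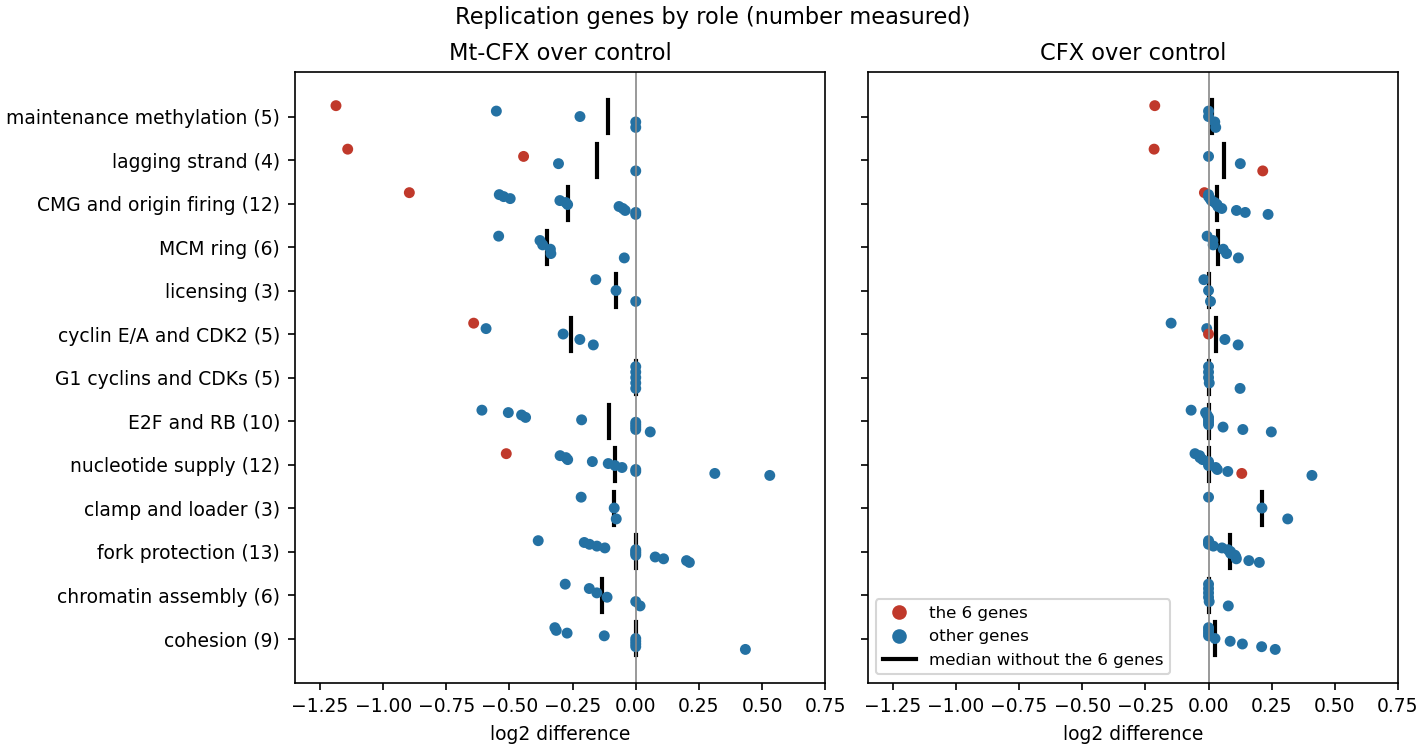
log2 differences (x axis) of the measured replication genes in 13 roles (y axis, number of genes in brackets) for Mt-CFX over control (left) and CFX over control (right); each point is 1 gene, red for the 6 genes, and black bars are medians of the role without them. With Mt-CFX these medians run from −0.35 for the MCM ring to 0.00, and with CFX they run from 0.00 to 0.21.

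The genes with the most similar pattern were sought over the differences of Mt-CFX and of CFX over control, that is over 3 arrays, by Euclidean distance to the mean of the 6 genes (−0.80 and −0.02 log2). The nearest were PLPP3 at a distance of 0.03, MST1 and HAS2 at 0.04, SDC2 at 0.05 and FAT1 at 0.06, followed by SECTM1, GALNT10, CDK15, TNS4 and SHISA3. Of these 10 genes 0 belonged to the replication lists, which hold 0.981% of the compared genes besides the 6. The 6 genes were chosen with their low values known. The lowest other replication gene, E2F8, was at −0.61 with Mt-CFX over control, well above their mean. The count of 0 was therefore set by the choice of genes, and nothing is read from it. PLPP3 was at −0.84 with Mt-CFX over control and −0.01 with CFX over control. Nearest to FEN1 was THBS1, thrombospondin 1, at a distance of 0.003, with −1.14 for Mt-CFX and −0.21 for CFX over control. Nearest to UHRF1 was ADGRF5, with −1.17 for Mt-CFX and −0.18 for CFX. Nearest to GINS2 was ROR1, with −0.89 for Mt-CFX and −0.02 for CFX.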

How the data were processed

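Trizol-extracted total RNA was copied to whole-transcript cDNA and labelled with biotin, per the labels' protocols. The deposited values are log2 expression values per probe set. The submitters' processing notes name RMA and Affymetrix Expression Console as the authors' tools; version and genome build are not given in the sources used here. As background, RMA summarises probes by a median polish across arrays, in which exact ties can arise. Values ran from 0.0868 to 13.1.

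The platform annotation named 16098 of 53617 probe sets. Each gene used its probe set with the highest mean, and protein-coding genes were kept when the highest array reached 3.89 log2. Differences of log2 values were taken, and genes were counted at 2-fold and at 1.5-fold. No test was possible with 1 array per group, and their number limits the precision. Counting and re-centring were tested on simulated data. The 6 genes and the role lists were chosen with earlier results of these data known. Named genes were the 6 genes, measured members of the lists, and the genes nearest in pattern (10 to the mean, 3 each to UHRF1, FEN1 and GINS2). Alternatives were the mean of probe sets, lowess re-centring (span 0.3), centring on array medians, other floors, 1.5-fold, every gene type, and lists without tied genes or without the 6 genes. Promoter windows and gene names came from RefSeq (GRCh38.p14). Python 3.11.15, numpy 2.4.6, pandas 2.3.3, statsmodels 0.14.6 and matplotlib 3.10.9 were used.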

Additional observations from a re-analysis of the deposited data

How the results depend on the processing

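No paired analysis was possible because each group was 1 array. For the same reason leaving out a replicate was not possible. The log2 differences of the 6 genes moved by at most 0.02 under lowess re-centring and centring on array medians, and 0 of these 36 values changed sign. Centring moves every gene of an array alike, and the array medians lay between 3.88 and 3.91. In each comparison 52.9% to 59.2% of genes were tied, which holds a lowess curve near 0. Neither could therefore move the 6 genes far, so the small moves say nothing about the reliability of the values. The mean of probe sets could not move them, since each gene had 1 probe set. Centring on medians put CCNE2 at 0.01 for CFX over control, where the deposited values were tied. The median over all 93 replication genes, the 6 chosen ones included, was −0.12 for Mt-CFX over control, 0.01 for CFX over control and −0.17 for Mt-CFX over CFX. Over 8 alternatives it ranged from −0.20 to −0.09, from 0.01 to 0.03 and from −0.26 to −0.14 in that order; the ends at −0.09 and −0.14 are the medians without the 6 genes given in the results. A value was taken as unmoved within 0.1 log2, and a count within 1.5 times.

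At 1.5-fold in place of 2-fold, 4 in place of 2 of the 6 genes were lower for Mt-CFX over control and 6 in place of 0 for Mt-CFX over CFX. All genes counted at 1.5-fold were 129 higher and 111 lower for Mt-CFX over control (27 and 23 at 2-fold), 4 higher and 9 lower for CFX over control (2 and 0), and 100 higher and 91 lower for Mt-CFX over CFX (23 and 11). For CFX over control at 2-fold, 1 gene was lower with no floor, 0 were higher with a floor on the mean or at the 75th percentile, and genes of every type gave 6 higher and 1 lower. The 6-base E2F cores GGCGGG and GCGCGA were in 3 of the 4 genes with a window, beside 77.2% of compared genes and 45.2% of all windows, so with the cores the 4 genes were at the background.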

Other observations

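Genes whose RefSeq window held at least 1 of the 3 E2F sites were also described across all compared genes, replication genes included. They take in UHRF1, GINS2 and TYMS, chosen with their low Mt-CFX values known. They also take in 22 other replication genes, from lists chosen with earlier results known, so nothing is read from the contrasts below. Of the 341 genes with a site 104 (30.5%) were lower, 163 equal and 74 (21.7%) higher with Mt-CFX over control. Among 7000 genes with a window and no site 23.1% were lower and 24.4% higher. For CFX over control 13.8% of genes with a site were lower and 33.7% higher, beside 14.8% and 26.3% of those without. The median was 0.00 in every one of these groups. Those at least 1.5-fold lower with Mt-CFX over control numbered 6 (1.76%, beside 1.19% of genes with no site), of which UHRF1 and GINS2 were chosen for low values. They were UHRF1, SERTAD4 at −1.15, GINS2, LPAR1 at −0.73, ACACA at −0.66 and CDC25A. With the 6-base cores the difference was smaller, at 24.3% lower with Mt-CFX beside 20.7% without a core.

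Some genes in the replication lists were higher with both compounds than in the control. Being higher with Mt-CFX was less frequent among the 87 other replication genes (10.3%) than among all genes (23.9%). With CFX over control 55.2% of the 87 were higher, against 25.8% of all genes. The lists were chosen with earlier results of these data known, so nothing is read from these shares. RRM2B was at 6.21 with Mt-CFX, 6.09 with CFX and 5.68 in the control, ESCO1 at 7.26 with Mt-CFX, 7.09 with CFX and 6.82 in the control, and RAD17 at 7.40 with Mt-CFX, 7.30 with CFX and 7.19 in the control. TIPIN, HUS1, ATRIP and TFDP2 had the same value with both compounds, and that value lay above the control.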
